A study of Sus scrofa with 70 samples.

Results

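The miRNAs known for their expression in epithelia, ssc-miR-205, ssc-miR-31, ssc-miR-375 and the 3 miRNAs of the miR-183 cluster (ssc-miR-182, ssc-miR-183 and ssc-miR-96-5p), 6 in all, were described across 5 reproductive glands of boars. They were found by name in the deposited miRNA table, in which 8 names were looked for (miR-205, miR-203a, miR-203b, miR-375, miR-31, miR-182, miR-183 and miR-96, with any arm). The names gave 6 of the 743 entries, and 0 entries carried the name miR-203a or miR-203b, so that miR-203 was not analysed here. Small RNA was sequenced from bulbourethral gland, prostate gland, vesicular gland, epididymis and testis of boars of 12 months from 2 Chinese populations. BMI is the Banna mini-pig inbred line, which was bred by close matings from DSE, the Diannan small-ear pig, which is not inbred. No animal was treated and no gene was altered. Each breed and gland had 3 small RNA-seq and 3 RNA-seq libraries and 1 Iso-seq library. The methods describe as many tissue samples as there are libraries of each short-read kind, but neither they nor the labels say which samples came from one boar, so that p-values measure the spread between tissue samples of boars whose number is not given.

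A mature miRNA guides an Argonaute complex to mRNAs, mainly through its seed, bases 2 to 8, and lowers the output of those mRNAs. miR-205 is abundant in basal cells of stratified and glandular epithelia and is known to act on ZEB1 and ZEB2, repressors of epithelial genes. miR-375 is known from endocrine cells and from secretory epithelia such as that of the prostate. miR-182, miR-183 and miR-96 are made from one genomic cluster and are best known from sensory epithelia, and miR-31 is known from epidermis and gut.

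The mature sequences of 5 of the 6 members were matched by name in the RefSeq annotation of the pig genome (build Sscrofa11.1, the build used for the deposited files). They are given 5′ to 3′ because the seeds, in capitals, show which members can be read as one family. No RefSeq entry was matched to ssc-miR-375.
ssc-miR-205: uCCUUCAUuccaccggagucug
ssc-miR-31: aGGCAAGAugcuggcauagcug
ssc-miR-182: uUUGGCAAugguagaacucacacu
ssc-miR-183: uAUGGCACugguagaauucacug
ssc-miR-96-5p: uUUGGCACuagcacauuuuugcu

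No 2 of these 5 sequences shared the whole seed. ssc-miR-182 and ssc-miR-96-5p shared bases 2 to 7 (UUGGCA), and ssc-miR-183 and ssc-miR-96-5p had 6 of 7 seed positions alike. Over the whole molecule ssc-miR-182 and ssc-miR-183 were the most alike, with 18 of 23 positions identical when both were read from the 5′ end.

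The cluster lies on the plus strand between the protein-coding genes UBE2H and NRF1, outside both. ssc-miR-183 is at chr18:18982274-18982296, ssc-miR-96-5p at chr18:18982516-18982538 and ssc-miR-182 at chr18:18986840-18986863. The precursors of miR-183 and miR-96 are 167 bases apart and those of miR-96 and miR-182 are 4239 bases apart, so that all 3 fall within 4645 bases. ssc-miR-205 is at chr9:133517119-133517140 on the minus strand, where the lncRNA gene LOC102159171 runs on the plus strand. ssc-miR-31 is at chr1:201198742-201198763 on the plus strand, between MTAP and IFNE, with no annotated gene over it.

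The miRNA reads in a library, recovered from the steps of the RPM values, came to between 1294544 and 11814954 in the testis and to at least 13069143 in each library of the other glands. All 6 members passed the filter of at least 1 RPM in at least 3 libraries, as did 526 entries in all. Levels are given as RPM, the reads of a miRNA scaled to a fixed total of miRNA reads in each library. Differences are on the log2(RPM + 1) scale from limma, and an entry was called where its Benjamini-Hochberg adjusted p over all entries tested was below 0.05 and its difference was at least 1. In the testis the median of these entries lay 1.34 above the other 4 glands on this scale, and this shift fell to 0.09 once RPM was divided by median-of-ratios size factors. Counts of members called in the testis are therefore given with both scalings. Of the small RNA-seq libraries all 30 were most like the other libraries of their own gland, while the RNA-seq library BMI prostate gland 2 correlated more with the vesicular gland (Pearson r = 0.970) than with the other prostate libraries (r = 0.942). In bulk tissue fewer cells of a type and less RNA per cell cannot be told apart.

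**Figure D1:**
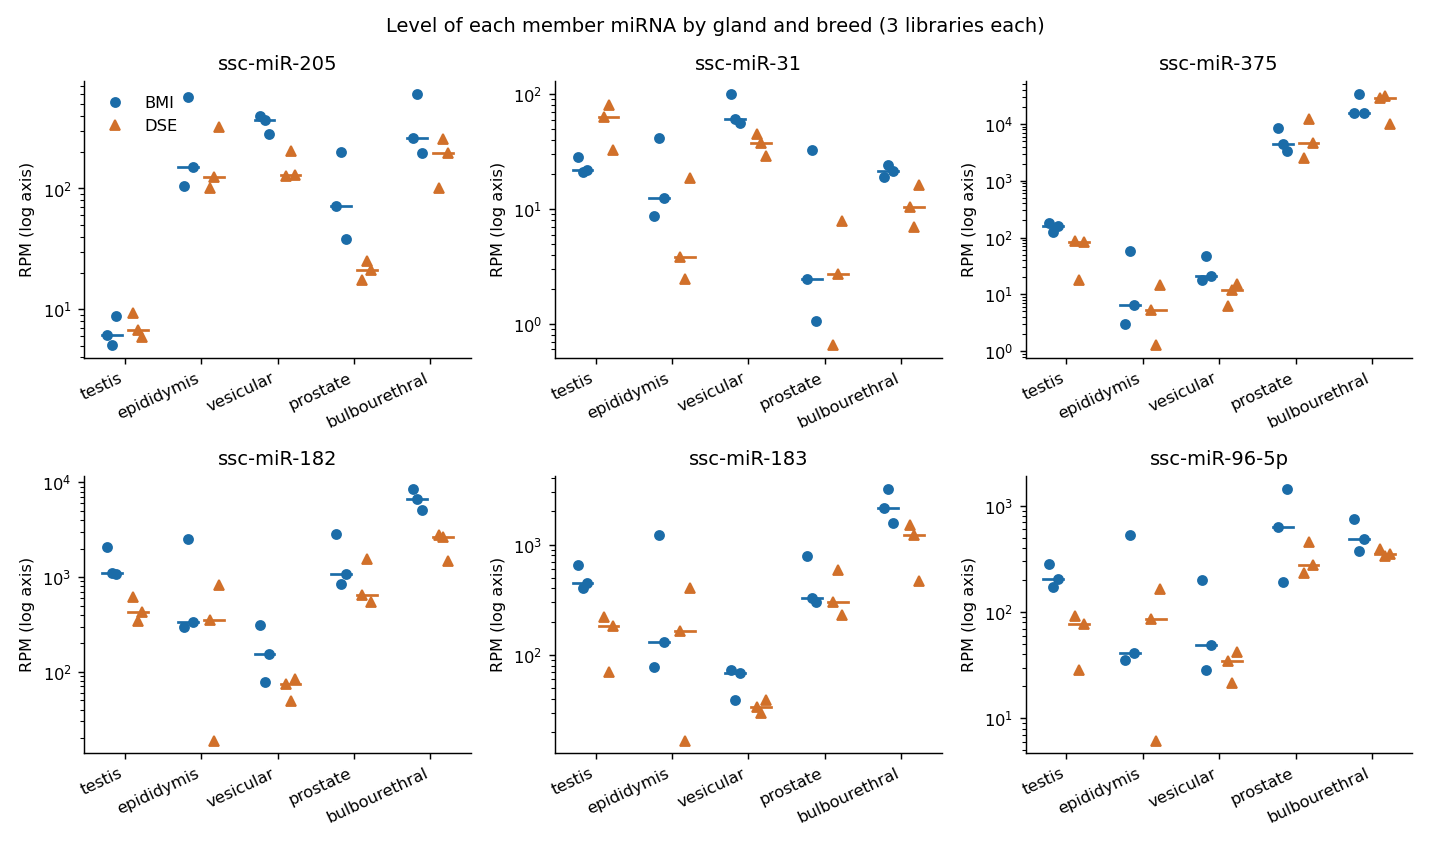
RPM of each member (log axis) in the 3 BMI libraries (circles) and 3 DSE libraries (triangles) of each gland, with bars at the group medians. ssc-miR-375 had at least 2486 RPM in all 12 prostate and bulbourethral libraries and below 178 RPM in the 18 others, and ssc-miR-205 was below 9.5 RPM in all 6 testis libraries.

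ssc-miR-205, the basal-cell miRNA, was lowest in the testis, next lowest in the prostate gland and high in the other 3 glands. In the testis it had 6.18, 5.03 and 8.81 RPM in BMI and 9.40, 6.69 and 5.95 RPM in DSE. In the prostate gland it had 71.7, 199.6 and 38.1 RPM in BMI and 17.5, 25.1 and 21.3 RPM in DSE. No testis library reached the lowest library of any other gland, and within the prostate gland every BMI library was above every DSE library.

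The bulbourethral gland had 263, 610 and 199 RPM of ssc-miR-205 in BMI and 100, 257 and 198 RPM in DSE. The vesicular gland had 395, 370 and 284 RPM in BMI and 127, 204 and 130 RPM in DSE. The epididymis had 106, 569 and 151 RPM in BMI and 101, 125 and 320 RPM in DSE. These 3 glands overlapped widely, and their pairwise differences of -0.04 to -0.35 were all within their error, with 95% intervals that reached -1.19 and 0.80.

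Against the mean of the other 4 glands ssc-miR-205 was lower in the testis by -4.19 (SE 0.322, adjusted p = 3.56e-12, limma). It was also lower there with size factors, by -5.58. The testis minus prostate gland difference was -2.44 (95% interval -3.28 to -1.61) and the prostate minus bulbourethral gland difference was -2.46 (-3.29 to -1.62). Against the other 4 glands together the prostate difference was -1.13 (SE 0.322, adjusted p = 0.007, limma), and this call was not made with size factors (-0.97) or without BMI prostate gland 3 (-0.86).

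KRT5 and TP63, a keratin and a transcription factor of basal epithelial cells, had lower medians in the testis and the prostate gland than in the other 3 glands. KRT5 was listed at 0 in the 6 testis libraries and had medians of 1.95 TPM in the prostate gland, 24.1 in the epididymis, 28.8 in the vesicular gland and 50.4 in the bulbourethral gland. TP63 had medians of 0.34, 0.91, 11.13, 4.54 and 5.14 TPM in the same order of glands. BMI prostate gland 2 had the highest level of KRT5 among the prostate libraries, 10.9 TPM against 0.16 to 5.06 TPM, and the library of that name had the highest ssc-miR-205. Other basal genes were mixed. CDH3 ran with KRT5 and TP63, with medians of 1.60 TPM in the prostate gland, 8.81 in the epididymis, 2.35 in the vesicular gland and 2.20 in the bulbourethral gland. ITGB4, ITGA6 and NGFR ran otherwise. The summed TPM of the basal list had a median of 96.4 in the prostate gland against 53.0 in the vesicular gland. ITGB4 had medians of 72.0 and 6.995 TPM there, ITGA6 16.5 and 4.04 TPM, and NGFR 3.83 and 2.49 TPM. The part of basal cells in the level of ssc-miR-205 was not tested.

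ssc-miR-375 spanned the widest range of the 6 members, from 1.26 to 34228 RPM. It was very high in the bulbourethral gland, where it was the 5th most abundant of 676 mature names by mean RPM, and high in the prostate gland, where it was the 18th. In the bulbourethral gland it had 15358, 34228 and 15903 RPM in BMI and 28097, 31427 and 10053 RPM in DSE, which came to 2.18% and 2.32% of the miRNA reads. In the prostate gland it had 8524, 4406 and 3331 RPM in BMI and 2486, 12320 and 4568 RPM in DSE. One prostate library, DSE 2, was above the lowest bulbourethral library.

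In the testis ssc-miR-375 had 178, 123 and 158 RPM in BMI and 86.6, 17.9 and 84.1 RPM in DSE. In the vesicular gland it had 18.1, 47.5 and 21.3 RPM in BMI and 6.30, 11.7 and 15.3 RPM in DSE. The epididymis had 3.01, 58.8 and 6.60 RPM in BMI and 5.28, 1.26 and 14.6 RPM in DSE. The mean of the bulbourethral gland was 1124 times that of the vesicular gland.

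The order of glands for ssc-miR-375 was bulbourethral, prostate, testis, vesicular and epididymis. The prostate gland was below the bulbourethral gland, with a difference of -2.01 (95% interval -3.18 to -0.84, adjusted p = 0.0134, limma), and the testis below the prostate gland, with a difference of -5.84 (adjusted p = 6.15e-10, limma). The testis was above the vesicular gland by 2.33 (adjusted p = 0.00059), a call that was not made with size factors, where the difference was 0.48. The epididymis and vesicular gland differed by -1.04 with a 95% interval of -2.21 to 0.12, within error. CHGA, a granule protein of neuroendocrine cells, had medians of 0.60 and 0.88 TPM in the bulbourethral and prostate glands, where ssc-miR-375 was highest, and 64.0 TPM in the testis. Other genes of the neuroendocrine list were mixed. CHGB and INSM1 ran with CHGA, with CHGB at medians of 2.25 TPM in the testis, 0.13 in the prostate gland and 0.095 in the bulbourethral gland, and INSM1 at 0.25, 0 and 0 TPM. SYP and NCAM1 ran otherwise, with SYP at medians of 0.24 TPM in the testis, 0.93 in the prostate gland and 0.68 in the bulbourethral gland, and NCAM1 at 1.63, 2.63 and 1.64 TPM.

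By mean RPM the 3 miRNAs of the miR-183 cluster were highest in the bulbourethral gland or the prostate gland and lowest in the vesicular gland. ssc-miR-182 had 8539, 6735 and 5052 RPM in BMI and 2785, 2654 and 1468 RPM in DSE in the bulbourethral gland. In the vesicular gland it had 308, 77.9 and 153 RPM in BMI and 73.8, 49.2 and 83.6 RPM in DSE. All bulbourethral libraries were far above all vesicular libraries, with means 36.5 times apart and a vesicular minus bulbourethral difference of -5.22 on the log2 scale (95% interval -6.50 to -3.93, adjusted p = 2.87e-07, limma).

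By mean RPM the remaining glands lay between these ends. In the prostate gland ssc-miR-182 had 2839, 849 and 1081 RPM in BMI and 654, 1534 and 541 RPM in DSE. The testis had 2074, 1096 and 1079 RPM in BMI and 612, 343 and 430 RPM in DSE. The epididymis had 295, 2509 and 339 RPM in BMI and 354, 18.8 and 829 RPM in DSE, the widest spread of any gland as a ratio of the highest to the lowest library. DSE epididymis 2 was below every vesicular library. The prostate gland was below the bulbourethral gland (-1.85, adjusted p = 0.0389, limma), but this call was not made without any one of 8 libraries, BMI prostate gland 2 or 3, DSE prostate gland 1 or 3, or BMI or DSE bulbourethral gland 1 or 2, where the adjusted p reached 0.0957. The testis minus prostate difference was -0.44 on RPM, within error, and -1.95 with size factors, where it was called.

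By mean RPM ssc-miR-183 was also highest in the bulbourethral gland and lowest in the vesicular gland. It had 2137, 3202 and 1560 RPM in BMI and 1496, 1232 and 466 RPM in DSE in the bulbourethral gland, and 73.6, 38.8 and 68.4 RPM in BMI and 33.7, 30.0 and 38.7 RPM in DSE in the vesicular gland. No library of either gland overlapped the other, and the vesicular minus bulbourethral difference was -4.99 (adjusted p = 2.87e-07, limma). The remaining 3 glands ranged over 231.6 to 792 RPM in the prostate gland, 70.4 to 649.6 RPM in the testis and 16.7 to 1224 RPM in the epididymis.

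ssc-miR-96-5p departed from its cluster partners in the prostate gland. It had 635, 193 and 1449 RPM in BMI and 233, 456 and 278 RPM in DSE in the prostate gland, and 753, 377 and 484 RPM in BMI and 397, 335 and 353 RPM in DSE in the bulbourethral gland. The glands overlapped and differed by -0.05, with a 95% interval of -1.41 to 1.32. It was lower in the testis, with 28.4 to 287 RPM, in the epididymis, with 6.16 to 527 RPM, and in the vesicular gland, with 21.4 to 199 RPM.

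The ratio of 2 miRNAs within a library does not depend on how libraries are scaled. These ratios were chosen after the levels had been seen. The ratio of ssc-miR-96-5p to ssc-miR-182 had a median of 0.110 in the bulbourethral gland (range 0.056 to 0.241), 0.154 in the testis (0.083 to 0.191) and 0.203 in the epididymis (0.120 to 0.328). In the prostate gland it was 0.326 (0.224 to 1.34) and in the vesicular gland 0.451 (0.319 to 0.645). The vesicular and bulbourethral libraries did not overlap in this ratio, and BMI prostate gland 3 was the one library with more ssc-miR-96-5p than ssc-miR-182.

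Exact two-sided permutation tests of the log2 ratio, with gland labels permuted within breeds, were run for 2 ratios and 10 pairs of glands, 20 comparisons in all. The smallest p that 6 libraries against 6 allow here is 0.005. The ratio of ssc-miR-96-5p to ssc-miR-182 was higher in the vesicular gland than in the bulbourethral gland by 1.98 and higher in the prostate gland than in the bulbourethral gland by 1.81 (exact permutation p = 0.005 and adjusted p = 0.02 for both). In all 6 of its 10 comparisons passed, the others being testis minus vesicular gland (-1.61), testis minus prostate gland (-1.44) and epididymis minus vesicular gland (-1.22), each at an exact permutation adjusted p of 0.02, and epididymis minus bulbourethral gland (0.76) at 0.0333. The ratio of ssc-miR-183 to ssc-miR-182 had medians of 0.362 to 0.473 in the 5 glands, and none of its 10 comparisons passed, with adjusted p of 0.325 to 0.81 by the same exact permutation test.

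**Figure D2:**
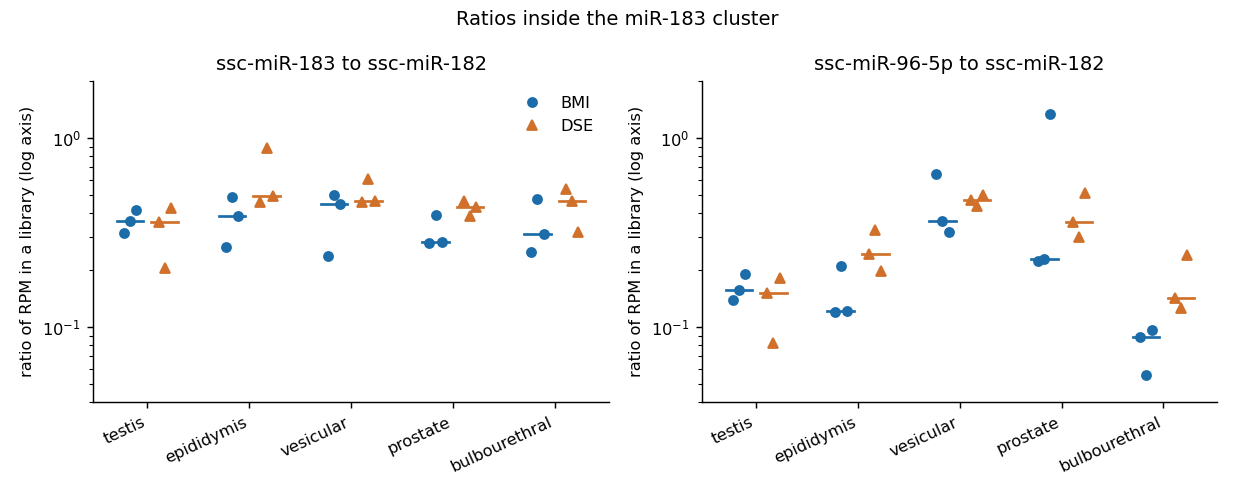
Ratio of ssc-miR-183 (left) and ssc-miR-96-5p (right) to ssc-miR-182 within each library (log axis), with BMI as circles, DSE as triangles and bars at the group medians. On the right the vesicular libraries sit between 0.319 and 0.645 and the bulbourethral libraries between 0.056 and 0.241.

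ssc-miR-31 had the lowest levels of the 6 members in the prostate gland and ran in another order. It was highest in the vesicular gland, with 101, 61.3 and 56.2 RPM in BMI and 45.0, 38.0 and 29.2 RPM in DSE. The prostate gland had 2.45, 32.5 and 1.05 RPM in BMI and 0.65, 2.72 and 7.88 RPM in DSE. Every vesicular library except DSE 3 was above every prostate library, and BMI prostate gland 2 was the one prostate library above 8 RPM. It is the library whose RNA-seq counterpart by name was more like the vesicular gland than the prostate gland. The difference of the prostate gland from the other 4 glands was -2.32 with it and -2.93 without it, and without it the epididymis minus prostate difference of 1.80 was called.

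The testis had 28.6, 20.9 and 21.7 RPM of ssc-miR-31 in BMI and 63.8, 80.0 and 32.8 RPM in DSE. The bulbourethral gland had 18.9, 24.4 and 21.4 RPM in BMI and 10.4, 6.97 and 16.3 RPM in DSE. The epididymis had 8.69, 41.4 and 12.4 RPM in BMI and 3.79, 2.47 and 18.5 RPM in DSE. The testis was thus second by RPM, and -0.49 from the vesicular gland, within error (95% interval -1.59 to 0.62), but -2.32 from it with size factors (adjusted p = 0.000239, limma).

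The vesicular gland was above the bulbourethral gland for ssc-miR-31 by 1.69 (adjusted p = 0.0168, limma). The epididymis minus bulbourethral difference was -0.55, within error. The prostate gland was below the bulbourethral gland (-1.74, adjusted p = 0.0243, limma), a call that was not made without BMI prostate gland 1, BMI prostate gland 3, DSE prostate gland 1 or BMI bulbourethral gland 2.

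Taking each gland against the mean of the other 4, the vesicular gland differed in all 6 members. ssc-miR-205 (1.89) and ssc-miR-31 (1.96) were higher and ssc-miR-375 (-4.91), ssc-miR-182 (-3.30), ssc-miR-183 (-3.10) and ssc-miR-96-5p (-2.05) lower there, and 32.5% of all entries were called in that comparison. In the bulbourethral gland 5 members were higher, by 7.81 for ssc-miR-375, 3.22 for ssc-miR-182, 3.14 for ssc-miR-183, 1.97 for ssc-miR-96-5p and 1.94 for ssc-miR-205, where 26.6% of entries were called. The difference of ssc-miR-31 there was -0.15 (95% interval -1.02 to 0.73).

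In the prostate gland 4 members were called, with 13.9% of entries called. They were ssc-miR-375 (5.30) and ssc-miR-96-5p (1.91), which were higher, and ssc-miR-31 (-2.32) and ssc-miR-205 (-1.13), which were lower. In the epididymis 3 members were called, with 15.6% of entries called, ssc-miR-205 (1.49) as higher and ssc-miR-375 (-6.21) and ssc-miR-96-5p (-1.41) as lower. The epididymis count rose to 6 without BMI epididymis 2 or without DSE epididymis 3, and was 2 at the lowest when one library was left out. The share of all entries called in those fits is not given here. The call of ssc-miR-96-5p in the epididymis was not made without BMI epididymis 1 or 3 (-1.07 and -1.13) or DSE epididymis 2 (-0.74), nor with size factors (-1.22).

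In the testis 3 members were called on RPM, where 63.3% of entries were called. ssc-miR-205 (-4.19) and ssc-miR-375 (-1.997) were lower and ssc-miR-31 (1.35) higher. With size factors, where 38.2% of entries were called, 5 members were called and all were lower: ssc-miR-205 (-5.58), ssc-miR-375 (-3.59), ssc-miR-96-5p (-2.04), ssc-miR-183 (-1.56) and ssc-miR-182 (-1.30). ssc-miR-31 turned to -0.19, ssc-miR-182 turned from 0.35 and ssc-miR-183 from 0.07, so that ssc-miR-205 and ssc-miR-375 were the members called as lower in the testis under both scalings. On RPM ssc-miR-96-5p was at -0.43 (95% interval -1.50 to 0.65, adjusted p = 0.459), within error.

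**Figure D3:**
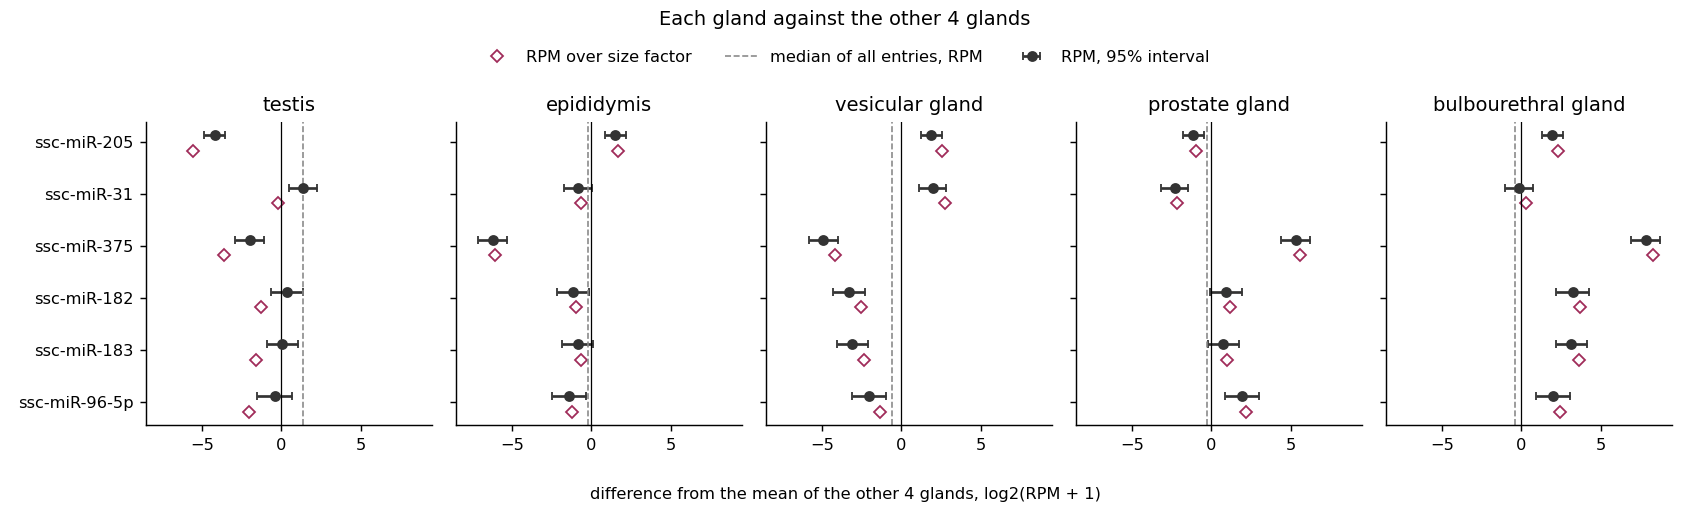
Difference of each gland from the mean of the other 4 glands on the log2(RPM + 1) scale, with 95% intervals (filled circles), the same with size factors (open diamonds) and the median of all entries on RPM (dashed line). Circles and diamonds lie apart mainly in the testis, where the dashed line is at 1.34.

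Between pairs of glands the vesicular and prostate glands differed in 6 of 6 members, where 14.4% of entries were called, and the testis and bulbourethral gland also in 6 on RPM, where 67.1% were. In the latter pair ssc-miR-31 (1.20, adjusted p = 0.0436, limma) turned to -0.39 with size factors and lost its call without any one of 10 libraries, namely BMI testis 1, 2 or 3, DSE testis 1 or 2, BMI bulbourethral gland 1, 2 or 3, or DSE bulbourethral gland 1 or 2. In 5 members there was a difference between the vesicular and bulbourethral glands (24.7% of entries) and between the prostate and bulbourethral glands (12.5%). In 4 there was one between the testis and the vesicular gland (70.7%), the testis and the prostate gland (62% of entries), and the epididymis and the bulbourethral gland (17.3%). In 3 there was one between the testis and the epididymis (64.1%), the epididymis and the vesicular gland (21.9%) and the epididymis and the prostate gland (12% of entries). With size factors the testis differed in 2 members from the vesicular gland (36.1% of entries), in 2 from the epididymis (36.1%), in 6 from the prostate gland (41.1%) and in 5 from the bulbourethral gland (42.6%). Against the vesicular gland the calls of ssc-miR-182 and ssc-miR-183, at 2.92 and 2.54 on RPM, were not made with size factors, where they were at 1.01 and 0.65. Against the epididymis the call of ssc-miR-31 was not made (0.37 with size factors), and against the prostate gland ssc-miR-183 went from -0.55 on RPM, within error, to a called -2.05.

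Several of these counts rested on single libraries. Between the epididymis and the vesicular gland ssc-miR-31 was called with each library left out in turn. The call of ssc-miR-182 there (1.71) was not made without any one of 7 libraries, BMI epididymis 2, DSE epididymis 1 or 3, BMI vesicular gland 2 or 3, or DSE vesicular gland 1 or 2, where the adjusted p reached 0.149 by limma. That of ssc-miR-183 (1.79) was not made without any one of 4, BMI epididymis 2, DSE epididymis 1 or 3, or BMI vesicular gland 2, where it reached 0.103. With size factors neither was called (1.29 and 1.38), and ssc-miR-375 was (-1.50). Between the testis and the epididymis all 6 members were called without BMI epididymis 2. Between the prostate and bulbourethral glands the call of ssc-miR-183 (-1.90) was not made without any one of 6 libraries, BMI prostate gland 2 or 3, DSE prostate gland 3, BMI bulbourethral gland 2, or DSE bulbourethral gland 1 or 2, where the adjusted p reached 0.0754. Between the epididymis and the prostate gland 5 members were called without BMI epididymis 2, DSE epididymis 3 or BMI prostate gland 2. The shares of all entries called in these fits with a library left out are not given here.

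The breeds were compared within each gland. In the testis the 3 cluster miRNAs were lower in DSE, with ssc-miR-182 at -1.59 (SE 0.316, adjusted p = 0.0198, limma), ssc-miR-183 at -1.77 (SE 0.419, adjusted p = 0.0345) and ssc-miR-96-5p at -1.86 (SE 0.435, adjusted p = 0.0345). In that comparison 8.66% of 485 entries were called. Depth moved with breed in the testis, with 1294544 to 2722685 miRNA reads in BMI and 2978122 to 11814954 in DSE, and its part in these differences was not tested. No BMI and DSE testis libraries overlapped for these 3 miRNAs or for ssc-miR-375 (-1.55, adjusted p = 0.0992) and ssc-miR-31 (1.20, adjusted p = 0.0628), which did not pass. The share of all entries without overlap was not counted, so this is not shown to be particular to the members.

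The testis calls were sensitive to the libraries and the fit, with fewer calls with no filter and more with the replicate block, as given below. No member was called without BMI testis 2 or without BMI testis 3, and without BMI testis 1 that of ssc-miR-182 alone was made. Without DSE testis 3 none of the 3 calls was made, and ssc-miR-31 was called as higher in DSE. With one fit of all glands 0 were called, and with size factors the calls were those of ssc-miR-182 (-1.39) and ssc-miR-31 (1.33), where 7.63% of entries were called. DSE testis 2 had the lowest ssc-miR-182, ssc-miR-183, ssc-miR-96-5p and ssc-miR-375 among the testis libraries. The RNA-seq library of that name had 24122 TPM summed over 8 germ cell genes, against 70208 to 107436 TPM in the 5 others, and 62024 TPM over the genes of Leydig and Sertoli cells, against 17944 to 31779 TPM. Without DSE testis 2 all 3 calls were still made, and the part of cell composition in the breed difference was not tested.

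In the other 4 glands no member was called between breeds by the main limma fit, where 0.517% of entries were called in the epididymis, 1.17% in the vesicular gland, 1.39% in the prostate gland and 0.552% in the bulbourethral gland. Members were called in the prostate and bulbourethral glands under some of the alternatives given below. The median of all entries was itself lower in DSE, by -0.68 in the epididymis, -0.60 in the vesicular gland and -0.70 in the bulbourethral gland, and came within 0.06 of 0 with size factors. ssc-miR-182 in the bulbourethral gland was at -1.58 (95% interval -2.39 to -0.77, adjusted p = 0.0527) and fell to -0.80 with size factors. ssc-miR-205 in the prostate gland was at -1.91 (95% interval -3.07 to -0.75, adjusted p = 0.127), and at -1.27 without BMI prostate gland 2. Without BMI prostate gland 3 it was at -2.45 and was called (adjusted p = 0.00014, limma). In the vesicular gland it was at -1.20 (95% interval -2.01 to -0.39, adjusted p = 0.0897) and at -0.58 with size factors. All BMI libraries were above all DSE libraries for ssc-miR-205 in the prostate gland. The same held for ssc-miR-205, ssc-miR-31, ssc-miR-375 and ssc-miR-183 in the vesicular gland, and for ssc-miR-31, ssc-miR-182 and ssc-miR-183 in the bulbourethral gland. The share of all entries separated in this way was not counted, so these cases are not shown to be particular to the members. In the epididymis the intervals were wide, from -4.60 to 0.98 for ssc-miR-182.

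Whether the breed difference changed between glands was tested with the breed by gland interaction in one limma fit. None of the 6 members was called, with adjusted p of 0.552 to 0.981, where 6.84% of entries were called. The breed differences of the cluster in the testis are therefore not shown to differ from those of the other glands.

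**Figure D4:**
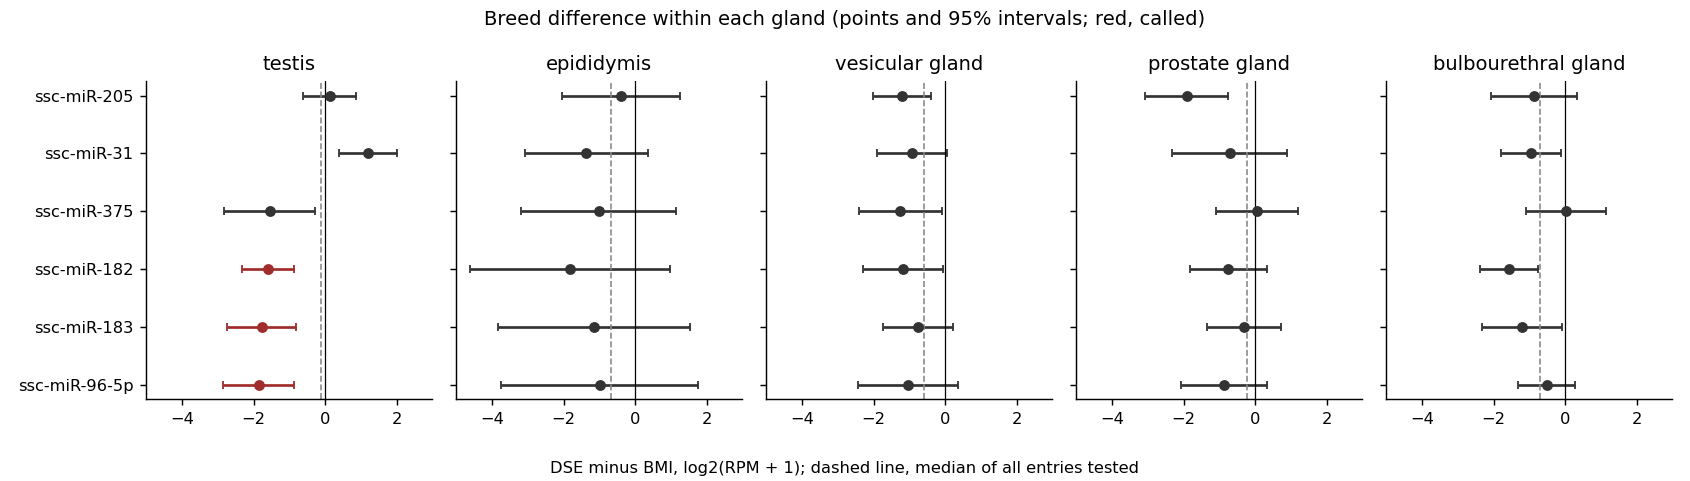
DSE minus BMI on the log2(RPM + 1) scale with 95% intervals for each member in each gland (6 libraries each), in red where called, with the median of all entries as a dashed line. The called differences are those of ssc-miR-182, ssc-miR-183 and ssc-miR-96-5p in the testis, at -1.59, -1.77 and -1.86.

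Over the 30 libraries, glands included, the members formed 3 patterns. Pearson r of log2(RPM + 1) was 0.98 between ssc-miR-182 and ssc-miR-183, 0.887 between ssc-miR-182 and ssc-miR-96-5p and 0.865 between ssc-miR-183 and ssc-miR-96-5p. ssc-miR-375 ran with the cluster, with r of 0.785 to 0.805. ssc-miR-205 had r of -0.020 to 0.032 with ssc-miR-375 and the cluster and 0.137 with ssc-miR-31, and ssc-miR-31 had r of -0.332 to -0.160 with ssc-miR-375 and the cluster. After the mean of each breed and gland was removed, ssc-miR-205 had r of 0.718 with ssc-miR-31, 0.573 with ssc-miR-375 and 0.208 to 0.490 with the cluster, and ssc-miR-31 had r of 0.168 to 0.320 with ssc-miR-375 and the cluster. These 30 points share glands, breeds and depth, and are a description.

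Among 468 mature names, those most like ssc-miR-205 were ssc-miR-429 (r = 0.904), the predicted miRNA chr6_32302 (0.830) and ssc-miR-200b (0.814), of which ssc-miR-429 and ssc-miR-200b belong to the miR-200 family, known from epithelia. After the mean of each breed and gland was removed, r with ssc-miR-429 was 0.270. Most like ssc-miR-31 were ssc-miR-29b (0.767), ssc-miR-222 (0.671) and ssc-miR-21-5p (0.653). Most like ssc-miR-375 were ssc-miR-96-5p (0.805), ssc-miR-574-3p (0.802) and ssc-miR-183 (0.801), and for each cluster miRNA they were the other two and ssc-miR-375.

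Epithelial genes were low in the testis and high in the other glands in RNA-seq. As for the members, each gland was compared with the mean of the other 4, testis included, so that a list far from the others in the testis shifts the difference of every other gland the opposite way. The summed TPM of 18 epithelial identity genes was 26.1 to 63.7 in the testis and 1568 to 4372 in the other glands. All 18 were called lower in the testis, where 12.7% of 19823 genes were lower, with a median of -4.80 against 0.31 over all genes. Among them EPCAM, an adhesion protein of epithelial cells, was at -4.34 and CDH1, E-cadherin, at -5.50. In the bulbourethral gland 15 of 18 were higher (8.46% of all genes), in the prostate gland 11, with 1 lower (3.7% of all genes higher), in the epididymis 10 (15.1%) and in the vesicular gland 6 (2.96%), counts that rest in part on the low testis.

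The basal epithelial list had 8 tested genes. All 8 were lower in the testis, 6 were higher in the epididymis and 5 in the bulbourethral gland. In the prostate gland 4 were lower (12.8% of all genes), KRT5 at -2.20 and TP63 at -1.43 among them, and 1, the integrin gene ITGB4 at 1.80, was higher. In the vesicular gland 2 were higher and 2 lower (30.1% of all genes), and KRT5 was at 1.80 and ITGB4 at -1.94.

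**Figure D5:**
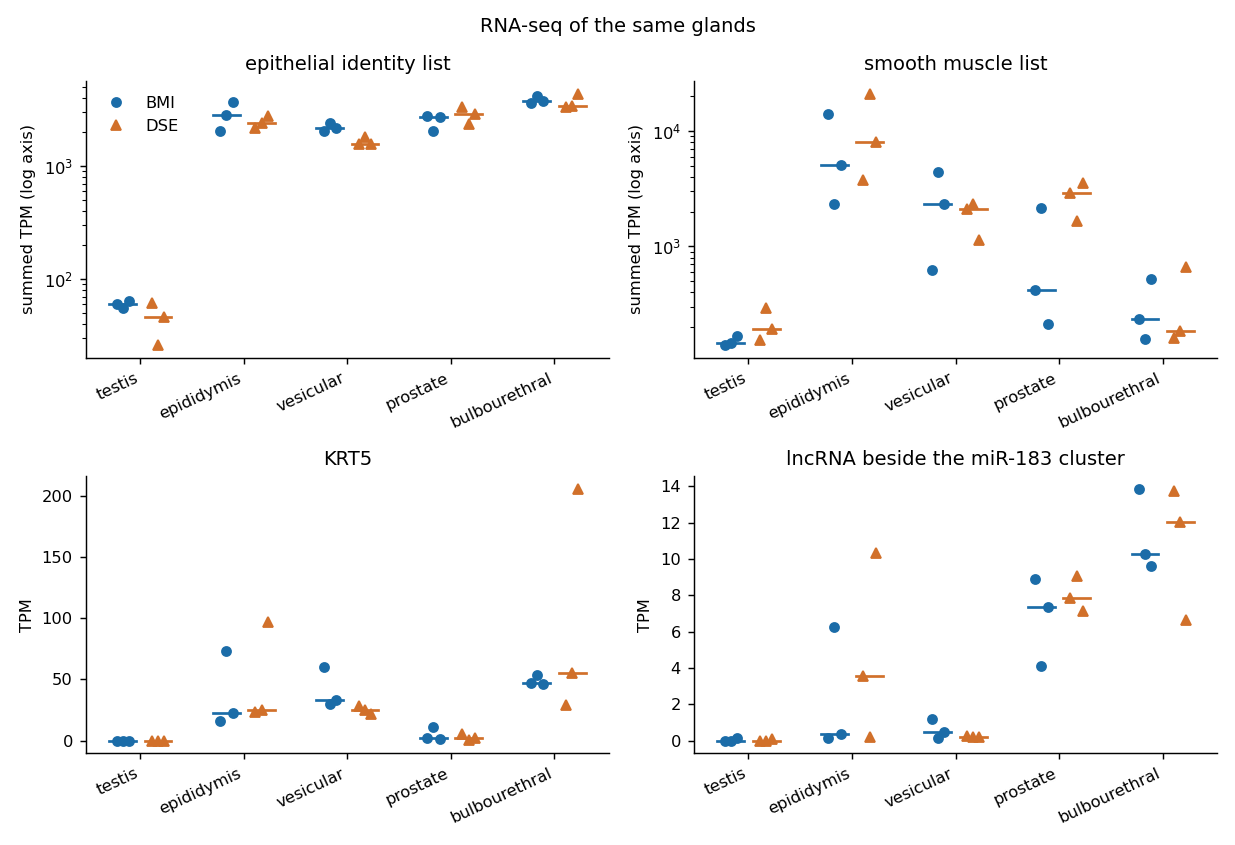
RNA-seq values per library (BMI circles, DSE triangles, bars at group medians): summed TPM of 18 epithelial identity genes and of 6 smooth muscle genes (log axes), and TPM of KRT5 and of the lncRNA beside the miR-183 cluster. The epithelial sum is 26.1 to 63.7 in the testis and at least 1568 elsewhere.

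Smooth muscle genes differed between glands and between libraries of a gland. The summed TPM of 6 genes, led by TAGLN and ACTA2 of the contractile apparatus, was 2318 to 21116 in the epididymis and 159 to 660 in the bulbourethral gland. All 6 were called higher in the epididymis and lower in both the testis and the bulbourethral gland (12% of all genes lower), and 4 were higher in the vesicular gland and 1 in the prostate gland. The epididymis RNA-seq library DSE 2 had the highest sum, 21116 TPM, and the small RNA library of that name had the lowest ssc-miR-182, ssc-miR-183, ssc-miR-96-5p and ssc-miR-375 of the gland. BMI epididymis 2 had the lowest sum, 2318 TPM, and the highest level of all 6 members. DSE epididymis 3 went against this order. It had the third highest sum (8091 TPM) and the second highest ssc-miR-182. Germ cell genes moved in the same libraries, with 965 TPM in BMI epididymis 2, the highest, and 1.59 TPM in DSE epididymis 2, the lowest. The part of muscle and of germ cells in these levels was not tested. Skeletal muscle genes summed to 2226 TPM in DSE bulbourethral gland 3, 869 in BMI epididymis 1 and 607 in BMI bulbourethral gland 1, and to at most 103 TPM in the 27 others. The small RNA library DSE bulbourethral gland 3 had the lowest ssc-miR-375, ssc-miR-182 and ssc-miR-183 of its gland and the lowest likeness to its gland's other libraries (r = 0.9752). Without it ssc-miR-31 and ssc-miR-182 were called as lower in DSE in that gland. The share of all entries called in that fit is not given here, and the median of all entries with every library was -0.70. The part of muscle in these levels and calls was not tested. Of the 5 tested skeletal muscle genes 3 were higher in the bulbourethral gland and 1 in the epididymis, and 1 was lower in the vesicular gland.

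Other cell type lists were read for the same libraries. Of 6 tested neuroendocrine genes 2 were higher in the testis (34.6% of all genes), CHGA among them at 3.99, and 1, NCAM1 at 2.29, in the epididymis, and in the vesicular gland 1 was higher and 2, CHGA (-2.13) and NCAM1 (-1.15), were lower. None was higher in the prostate or bulbourethral gland by limma, and CHGA was lower in the bulbourethral gland at -1.73. All 8 germ cell genes were higher in the testis, as were 5 of 7 tested Leydig and Sertoli genes, with INSL3, a Leydig cell hormone, at 13.7. Against a mean that holds the testis, germ cell genes were called lower in 5 of 8 cases in the epididymis (6.57% of all genes) and in 8 of 8 in each remaining gland, and Leydig and Sertoli genes in 4 of 7 and 5 of 7. The summed germ cell TPM of the epididymis (median 83.9) was nevertheless above that of the vesicular (0.15), prostate (2.42) and bulbourethral (2.53) glands. One of those 7 was lower in the testis, and 1 was higher in each of the epididymis, prostate gland and bulbourethral gland. Of 7 tested mesenchymal genes 2 were higher and 2 lower in the testis, 2 higher in the epididymis, 2 lower in the vesicular gland, 1 higher in the prostate gland, and 1 higher and 1 lower in the bulbourethral gland.

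Genes reported elsewhere as targets of the members were listed from general knowledge and not from these data, and their counts are to be read against the shares of all genes called in each gland and direction, given above. ZEB1, the target of miR-205 named above, was at 0.08 in the testis, where ssc-miR-205 was lowest, at 1.32 in the epididymis (adjusted p = 0.00265, limma) and at -1.07 in the vesicular gland (adjusted p = 0.00906), where the median of all genes was -0.69 and fell in size to -0.20 with size factors. ZEB2 was not found under that symbol. Of the 5 tested targets of miR-205, 2 were lower in the testis (VEGFA at -1.85 and ERBB3 at -4.97), and in the prostate gland 1 was higher, VEGFA at 1.99. In the epididymis 2 were higher, in the vesicular gland 1 was higher and 2 lower, and in the bulbourethral gland 1, ERBB3 at 1.59, was higher.

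Of 4 tested targets of miR-375, MTPN, PDPK1, YAP1 and JAK2, none was called in the prostate or bulbourethral gland by limma, with YAP1 at -0.41 and 0.07 there, and 1, PDPK1 at 1.19, was higher in the testis. Of 10 targets of miR-31, 5 were higher in the testis (LATS2 at 1.78 and RDX at 1.32 among them), against 34.6% of all genes, and 3 were lower in the vesicular gland, against 30.1% of all genes. In the vesicular gland LATS2 was at -1.58 and RDX at -1.57, while 1 was lower in the prostate gland, 2 in the bulbourethral gland and 0 in either direction in the epididymis by limma. The median of the 10 in the vesicular gland was -0.91 against -0.69 over all genes. Of 12 targets of the miR-183 cluster, 1 was higher and 2 were lower in the bulbourethral gland, with PDCD4, a translation inhibitor, at 2.03 and EGR1, an early response factor, at -1.62. In the vesicular gland 1 was higher, EGR1 at 2.01, and 2 were lower. In the testis 3 were higher and 3 lower, against 34.6% and 12.7% of all genes, in the epididymis 3 were higher, against 15.1% of all genes, and in the prostate gland none was called by limma.

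No Iso-seq isoform covered any of the 5 precursors placed on the genome, and the precursor transcripts have no TPM value. The nearest transcribed gene to the cluster was the lncRNA ENSSSCG00000049100, whose isoform PB.9482.1 lies at chr18:18971463-18977207 on the opposite strand, 5061 bases before the miR-183 precursor, and rested on 3 full-length reads. Its TPM was 6.65 to 13.9 in the bulbourethral gland (median 11.14), 4.12 to 9.08 in the prostate gland (7.60), 0.12 to 10.3 in the epididymis (1.95), 0.15 to 1.18 in the vesicular gland (0.22) and 0 to 0.12 in the testis. The 4 glands outside the testis thus fell in the order of their ssc-miR-182 means, and the testis did not, with 939 RPM of ssc-miR-182 and a median of 0 TPM of the lncRNA. In the epididymis the lncRNA was at 6.23 TPM in BMI 2, 10.3 in DSE 3 and 3.54 in DSE 1, the 3 libraries whose names also had the most ssc-miR-182, and at most 0.36 TPM in the other 3.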

How the data were processed

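Small RNA, RNA-seq and Iso-seq libraries of 5 glands from 2 breeds were analysed from deposited tables. The authors trimmed small RNA reads with cutadapt, aligned them with Bowtie (1.3.1), and quantified known and predicted miRNAs with miRDeep2, and deposited RPM with 2 decimals. RNA-seq was deposited as TPM per transcript, which the authors obtained with Salmon (1.9.0) from an annotation merged with Iso-seq isoforms, and TPM was summed per gene here. Iso-seq was deposited as counts of full-length reads, used only to look for transcripts at the loci. The genome build was Sscrofa11.1.

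RPM and TPM were tested as log2(value + 1) with limma (3.58.1, R 4.3.3), with breed by gland means and trend, on entries of at least 1 RPM or TPM in at least 3 libraries. Calls needed a Benjamini-Hochberg adjusted p below 0.05 over all entries and an absolute difference of at least 1. Breeds were compared within each gland on its 6 libraries. The fits were tested on simulated data. Whole reads were recovered from the RPM steps and tested with edgeR (4.0.16) as an alternative on 28 libraries. The share of low values that came out whole, within the rounding of 2 decimals, was 100% in each library, but BMI epididymis 3 and DSE vesicular gland 2 did not pass a separate check of the steps and were left out. With edgeR 273 of 526 entries were called in the testis, 109 in the epididymis, 145 in the vesicular gland, 72 in the prostate gland and 155 in the bulbourethral gland, each against the other 4. Other alternatives were a pseudocount of 0.1, no filter, median-of-ratios size factors, a fit of the 5 glands together, a replicate block, one entry per name, and leaving out each library. Members and gene lists were chosen with earlier results of these data known. Every member was named, with the 3 mature names most correlated with it, and of each list at most 4 genes with the largest mean TPM, plus TP63, KRT5, EPCAM, CDH1, ZEB1 and ZEB2. The lncRNA and the cluster ratios were chosen after their values were seen. Depth was 1294544 to 21682350 miRNA reads a library, the lowest in testis, where ssc-miR-205 rested on as few as 8 reads.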

Additional observations from a re-analysis of the deposited data

Results flagged for a closer look

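Each member was checked in each gland, 30 groups of 6 libraries, for a library far from the others of its gland by Dixon's test on the log2 scale, which by chance marks about 1 in 20 groups. It marked 2. The lowest testis library for ssc-miR-375, DSE testis 2, had 17.94 RPM, against 84.1 to 178 RPM in the others. The highest vesicular library for ssc-miR-96-5p, BMI vesicular gland 1, had 198.7 RPM, against 21.4 to 48.7 RPM in the others.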

How the results depend on the processing

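On the scaling, the members called in the testis against the other 4 glands were 5 with size factors and 5 with edgeR (3 on RPM), and testis against vesicular gland gave 2 under both (4 on RPM). Directions turned in the testis against the other 4 for ssc-miR-31 (-0.19 with size factors, -0.74 with edgeR), ssc-miR-182 (-1.30 and -1.96) and ssc-miR-183 (-1.56 and -2.17). Against the epididymis they turned for ssc-miR-182 (-0.28 and -1.35), ssc-miR-183 (-0.73 and -1.81), ssc-miR-96-5p (-0.66 and -1.82) and, with edgeR, ssc-miR-31 (-0.11). They also turned for ssc-miR-96-5p against the vesicular gland (-0.58 and -1.42) and ssc-miR-31 against the bulbourethral gland (-0.39 and -0.72). With edgeR ssc-miR-183 in the epididymis was at 0.090. The median of all entries in the testis was 1.34 on RPM, 0.09 with size factors and -0.16 with edgeR. Of the member calls made on RPM, over all comparisons of glands and breeds, edgeR kept 53, did not make 11 and turned the direction of 3. It made 6 calls in the same direction that were not made on RPM.

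With no filter 6 calls of a member were not made, ssc-miR-96-5p in the epididymis, ssc-miR-31 between testis and bulbourethral gland, ssc-miR-182 between epididymis and vesicular gland and between prostate and bulbourethral glands, and ssc-miR-183 and ssc-miR-96-5p between breeds in the testis. With a pseudocount of 0.1 that of ssc-miR-31 between testis and bulbourethral gland was not made. Between breeds in the testis the 3 calls became 1 with no filter, 5 with the replicate block and 0 with one fit of all glands. With the replicate block 1 member was called in the prostate gland and 2 in the bulbourethral gland, and with one entry per name 1 in the bulbourethral gland. Within a gland this block joined BMI and DSE libraries of one number, which come from different boars, so it pairs no animals. The shares of all entries called between breeds under these alternatives are not given here. The replicate block changed no call of a member between glands that was made without it. Deviations of libraries with one number had r from -0.605 to 0.552 across glands, above 0.1 in 22 of 60 pairs, against 24 of 120 pairs with other numbers. Their medians were 0.042 with one number and -0.023 with other numbers. Values above 0.1 were thus more frequent with one number, though not in every pair. This check cannot show whether the numbers mark one boar, which is not stated either. The main fits took the libraries as independent, which would not hold if glands came from one boar.

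Leaving out one library gave 2 to 6 members called for the epididymis, 3 to 6 for testis and epididymis, 1 to 3 for epididymis and vesicular gland, 3 to 5 for epididymis and prostate gland and 2 to 5 for prostate and bulbourethral glands. Libraries whose omission moved one of these counts by over 1.5 times or ended a call in it were BMI epididymis 1, 2 and 3, DSE epididymis 1, 2 and 3, BMI vesicular gland 2 and 3, DSE vesicular gland 1 and 2, BMI prostate gland 1, 2 and 3, DSE prostate gland 1 and 3, BMI bulbourethral gland 1 and 2 and DSE bulbourethral gland 1 and 2. Breed calls were 0 to 3 in the testis, 0 to 1 in the epididymis (without DSE 1), vesicular gland (without BMI 1) and prostate gland (without BMI 3), and 0 to 2 in the bulbourethral gland (without DSE 3). None of these counts is set beside the share of all entries called in the same fit. ssc-miR-183 in the testis ran from -0.090 to 0.32. The log2 ratio of ssc-miR-183 to ssc-miR-182, an alternative chosen after seeing the data, ran from -0.19 to 0.035 between testis and prostate gland, -0.10 to 0.25 between epididymis and vesicular gland and -0.17 to 0.050 between prostate and bulbourethral glands. The cause of these changes was not tested. Counts of list genes called, over all lists in a gland, stayed within 1.5 times with the other pseudocount, no filter, size factors, the replicate block and each library left out.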
